A study of Mus musculus with 2 samples.

Results

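The genes described here are members of the BCL2 family, a family that controls platelet lifespan, together with Xiap: Bcl2, Bcl2l1, Mcl1, Bax, Bak1, Bid, Bad, Bcl2l11 and Xiap. They were taken as all probe sets, the groups of short probes that read a transcript on the array, whose single gene symbol in the platform annotation is 1 of these 9 names. That gave 34 probe sets for 8 genes, of 34945 probe sets with 1 symbol that cover 18193 genes. Bax, an effector of the family, had no such probe set in the annotation used and was not analysed here.

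RNA came from washed platelets of C57BL/6 mice. In Smad4 f/f mice, the controls, both copies of Smad4 are flanked by loxP sites. In Smad4 −/− mice, here also called the knockout, the same floxed gene is removed in megakaryocytes and platelets by a Cre recombinase driven by the PF4 promoter, a promoter chosen for that lineage; where else it may have acted was not analysed here. The labels do not say whether the controls carry the Cre transgene, nor the age or sex of the mice. Each genotype has 6 mice and 1 array, and the labels leave unsaid if their RNA was pooled. There are therefore no replicates, no test was run, and each value below compares a single array with a single array, a number that limits the precision.

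A platelet has no nucleus and carries mRNA made in the megakaryocyte. Its lifespan is set by the intrinsic apoptosis pathway: the survival proteins BCL-XL (from Bcl2l1), BCL2 and MCL1 hold back the effectors BAK and BAX, which otherwise permeabilise the outer mitochondrial membrane and release cytochrome c. BCL-XL restraining BAK is the main such pair in platelets, and drugs that block BCL-XL lower the platelet count. BH3-only proteins such as BID, BAD and BIM (from Bcl2l11) promote death by binding survival proteins or by activating the effectors, and XIAP blocks caspases further downstream.

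The arrays compare transcript levels with and without Smad4, the factor that joins TGF-beta and BMP receptor-activated SMADs in the nucleus and binds DNA at short sites containing AGAC, the SMAD box. The reference promoters of these genes show where such letters lie. All 9 genes, Bax included, matched RefSeq promoter windows of 300 bases (250 before the start and 50 after, GRCm38.p6), 15 windows in all because several genes have more than 1 start. AGAC, read on both strands (GTCT on the other), occurred in 12 of the 15 windows (80.0%) and in 88.0% of all 32851 windows of that length. The longer palindrome GTCTAGAC, which contains AGAC on each strand, occurred in 0 of the 15 and in 0.213% of all windows. The GC-rich palindrome GGCGCC, another sequence that SMAD proteins bind, occurred in 3 of the 15 (20.0%) and in 11.9% of all. A match is only a run of letters, and the arrays measured no binding.

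Printed first are the 250 bases before the annotated start of Bcl2 (chr1:106714291-106714540, minus strand, GRCm38.p6), because Bcl2 is the gene with the only member probe set at least 2-fold higher in Smad4 −/− by the floored ratios explained below. The capitals mark GGCGCC, 203 bases before the start, and 74.8% of the bases are G or C. This window overlaps no annotated gene in the RefSeq table.
Bcl2 promoter: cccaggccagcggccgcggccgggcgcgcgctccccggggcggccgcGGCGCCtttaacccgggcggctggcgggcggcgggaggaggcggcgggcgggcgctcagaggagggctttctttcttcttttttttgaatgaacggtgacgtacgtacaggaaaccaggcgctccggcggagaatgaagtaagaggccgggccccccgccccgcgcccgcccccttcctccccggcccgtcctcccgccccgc

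The SMAD box matches of Bad and Bcl2l1 are shown with the bases on either side, 24 bases each, because Bad had the lowest ratios among the members and Bcl2l1 encodes the main survival protein of platelets. Capitals mark AGAC or its complement GTCT. Bad has 2 annotated starts on the plus strand of chromosome 19, with 1 match in each window (chr19:6941873-6941896 and chr19:6942421-6942444). The window of its second start also has 1 match of GGCGCC, not printed here. The most upstream annotated Bcl2l1 start, on the minus strand of chromosome 2, has 4 matches (chr2:152831955-152831978, chr2:152831791-152831814, chr2:152831750-152831773 and chr2:152831710-152831733). That is the highest number in any member window, where the median over all 32851 windows is 2. The windows of the later Bcl2l1 starts have 3 and 2 matches and are not printed.
Bad first start: cctagcttctGTCTgcaggccccg
Bad second start: aaggcggtggAGACcagcaggtcg
Bcl2l1 match a: caatattgctGTCTatttttaaag
Bcl2l1 match b: cacgcgcctgAGACtcctcaaatc
Bcl2l1 match c: gctctcccatGTCTcgatgccagt
Bcl2l1 match d: ctccttttgcGTCTcgggctcgcg

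The deposited values are log2 signals, given here as linear signals where levels are named. A floor at the 60th percentile of signal, 145 on the linear scale or 7.18 in log2, separates measured values from weak ones: a probe set counts as measured if at least 1 array reached it, and lower values were raised to it before a ratio was taken. By this rule 27 of the 34 member probe sets were measured, at least 1 for each of the 8 genes. Ratios are Smad4 −/− over Smad4 f/f. The value of a gene is that of its brightest probe set by mean log2 signal (an _x_at set only where it has no other), and 2-fold serves as a rule of size. For 4252 genes at least 2 probe sets were measured. Between probe sets of 1 gene the SD of the log2 ratio was 0.48, a technical yardstick. It pools all signal levels on the same 2 arrays, so it holds no spread between repeat arrays or animals.

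The platelet identity of both samples was clear in their marker genes. All 13 measured platelet markers of 15 listed, such as Pf4 (162822 in the control and 167889 in the knockout) and the integrin gene Itga2b (102808 and 121861), stayed within 2-fold, with a median log2 ratio of 0.15. The 3 probe sets of Smad4 itself had log2 ratios of −0.09, −0.12 and −0.13. Where they lie relative to the deleted part was not analysed here, so they check nothing about the genotype. Probes near the 3′ end of a transcript outshine those near the 5′ end when RNA is degraded. For Gapdh the signal of the 3′ control probe set over the 5′ one was 1.86 in the control and 2.61 in the knockout. For beta-actin it was 1.16 and 1.27.

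None of the 8 member genes differed by 2-fold in its gene value, where 7.0% of all 11089 measured genes did, 3.42% higher and 3.58% lower. The gene values of Bcl2l1, Bcl2, Bid and Bcl2l11 were higher in Smad4 −/− and those of Mcl1, Bak1, Bad and Xiap were lower. They ranged from a log2 ratio of −0.61 for Bad to 0.40 for Bcl2 and Bcl2l1, and the median absolute log2 ratio was 0.16, beside 0.33 over all measured genes. Per probe set, 1 of 27 was at least 2-fold higher (Bcl2) and 1 at least 2-fold lower (Bad), where 3.35% and 3.5% of all 18099 measured probe sets were, 6.85% together. These 2 of 27 lie close to what all probe sets gave. With no floor, a Bcl2l1 probe set (1426191_a_at) also passed 2-fold upwards, at a log2 ratio of 1.15. Of the 27 ratios, 14 were above 0 and 13 below, where 48.2% of all measured probe sets were above 0. Their median was 0.05 beside −0.02 for all measured probe sets.

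**Figure D1:**
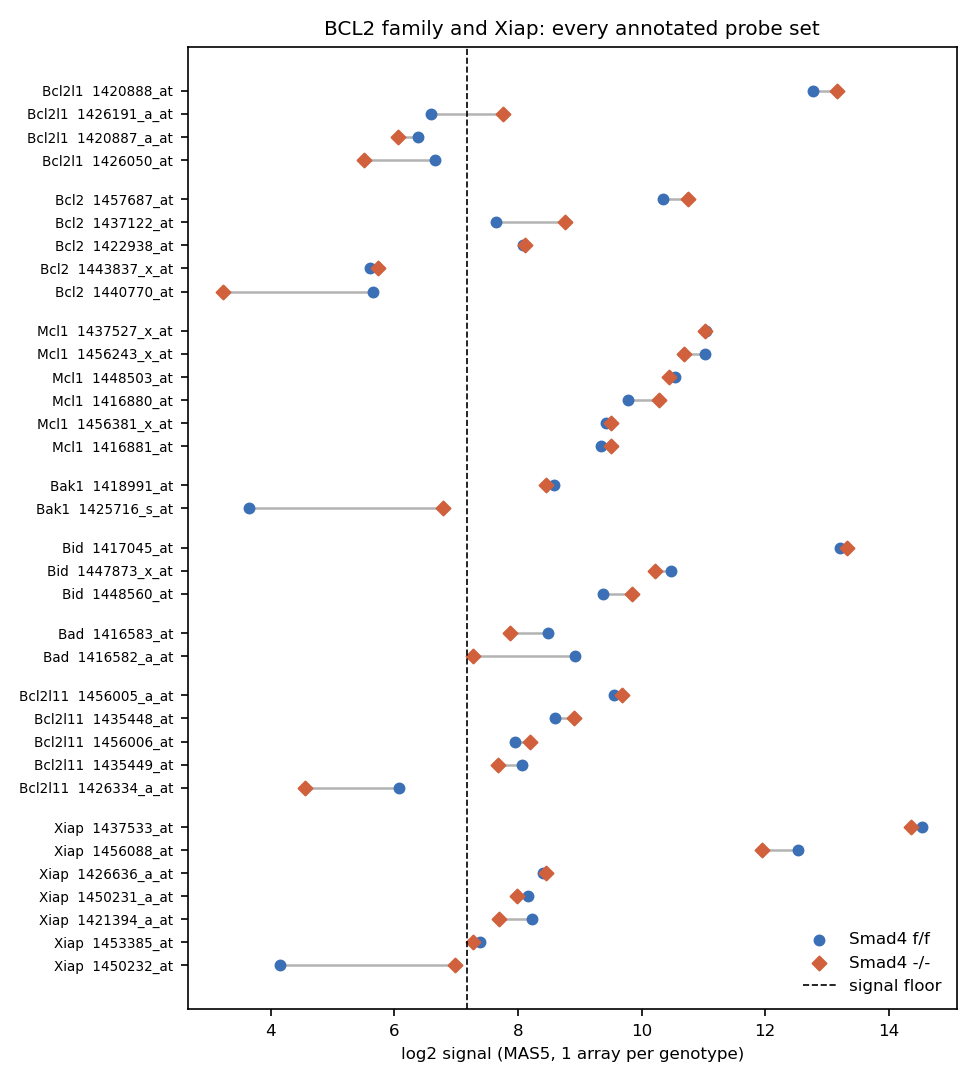
Log2 signal of each of the 34 member probe sets (rows, grouped by gene) in Smad4 f/f (circles) and Smad4 −/− (diamonds), 1 array each; the dashed line is the signal floor at 7.18. Most pairs lie close together above the floor, the Bad pair 1416582_a_at is the widest among measured probe sets, and the widest pairs of all lie below the floor on both arrays.

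Among the survival genes, Bcl2l1 was measured mainly by 1 probe set. That probe set, 1420888_at, read 6987 in the control and 9232 in the knockout, a log2 ratio of 0.40 or 1.32-fold higher in Smad4 −/−. A second one, 1426191_a_at, read 96.9 in the control, below the floor, and 216 in the knockout, at least 1.48-fold higher. The 2 remaining probe sets, 1420887_a_at (83.4 and 66.6) and 1426050_at (101 and 45.6), lay below the floor on both arrays and were lower in Smad4 −/−. Both measured probe sets were thus higher in Smad4 −/−, by less than the yardstick of 0.48 for the stronger. But 1426191_a_at counts as measured only through its knockout signal, so its floored ratio could not fall below 0. Of the 4252 genes with several measured probe sets, 4.77% had all of them at least as high as the weaker ratio of Bcl2l1. Genes with more than 2 measured probe sets meet this cut, taken from Bcl2l1 itself, less easily. It is a description and no test.

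Bcl2l1 is also strongly made in maturing red cells. Of 26 erythroid markers listed, 15 were measured. Of these, 6 passed 2-fold upwards in the knockout and 0 downwards, where 3.42% and 3.58% of all measured genes did. The summed signal of the 15 was 33704 in the control and 52588 in the knockout. Slc25a37, Fech and Bpgm, genes of iron import, haem synthesis and red cell glycolysis, were 3.90-fold, 3.06-fold and 2.65-fold higher. By gene value, 10 of the 15 were higher, where 48.3% of all measured genes were, and 5 were lower. The latter were the globin genes Hbb-b2 (517 and 263, a log2 ratio of −0.97) and Hba-a2 (−0.38), Tfrc (−0.61), Rhd (−0.49) and Klf1 (−0.31). The 2 measured probe sets of Hbb-b2 went both ways, from −0.97 to 0.91 with a mean of −0.03, so its direction is not settled. The brightest probe sets of Hba-a1, Epb42, Car1, Kel and Rhag lay below the floor on both arrays. The part of this difference in the Bcl2l1 ratio was not tested, and in RNA from whole preparations a different number of cells of a type and a different amount of RNA per cell cannot be told apart.

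Bcl2, the founding survival gene, had 3 measured probe sets, all higher in Smad4 −/− but by different amounts. The strongest, 1457687_at, read 1307 in the control and 1724 in the knockout, a log2 ratio of 0.40. Probe set 1437122_at read 200 and 435, 2.18-fold higher, a difference that 2.30% of all measured probe sets reached or passed. Probe set 1422938_at was nearly level, at 270 and 279. The spread between the 3, an SD of 0.55 in log2, was of the size of their mean ratio of 0.52. The other Bcl2 probe sets lay below the floor on both arrays, 1443837_x_at at 48.4 and 53.4 and 1440770_at at 50.2 and 9.33.

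Bcl2 is highly expressed in lymphocytes, whose markers also differed between the arrays. Of 22 T and NK cell markers, 11 were measured, 10 with a ratio above 0, where 48.3% of all measured genes had one. Ncr1 (82.4 in the control and 192 in the knockout) and Cd8a (90.3 and 172) reached the floor only in the knockout. Their ratios could therefore not fall below 0. Past 2-fold upwards was 1, Cd28, where 3.42% of all measured genes were. The summed signal of the 11 was 8881 in the control and 18147 in the knockout. Most of that sum was Cd28 (4685 and 12825). Cd3d was lower, at 356 and 181, and the brightest probe sets of Cd3e, Cd3g, Cd247, Cd4, Cd5, Cd8b1, Thy1 and Gzmb lay below the floor on both arrays. Of 15 B cell markers, 12 were measured, 9 with a ratio above 0 and 3 below, and their summed signal was 8312 and 9625. Past 2-fold were 2 upwards and 0 downwards, where 3.42% and 3.58% of all measured genes were. The 2 were Jchain (136 in the control, below the floor, and 542 in the knockout) and Cr2 (149 and 348). Blk was lower, at 520 and 290. The part of these lymphocyte markers in the Bcl2 ratio was not tested.

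Mcl1 encodes a short-lived survival protein that acts beside BCL-XL in megakaryocytes. All 6 of its probe sets were measured, 3 higher and 3 lower in Smad4 −/−. The strongest that is not of the cross-hybridising _x_at class, 1448503_at, read 1493 in the control and 1387 in the knockout, a log2 ratio of −0.11. The highest ratio was 0.50, for 1416880_at (878 and 1244), and the lowest −0.33, for 1456243_x_at (2079 and 1653). With a mean of 0.05 over the 6 and an SD of 0.28 between them, the Mcl1 probe sets pointed neither way.

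The effector arm rested on Bak1, whose protein forms the mitochondrial pore in platelets together with BAX. Its measured probe set, 1418991_at, read 383 in the control and 351 in the knockout, a log2 ratio of −0.13. The other, 1425716_s_at, read 12.6 and 110, below the floor on both arrays, and carries no ratio here although it was the more different pair. Bcl2l1 and Bak1 encode the main pair that sets platelet lifespan. The log2 ratio of Bcl2l1 exceeded that of Bak1 by 0.53 (0.47 to 0.61 over all settings tried, which reuse the same 2 arrays). The yardstick of 0.48 describes how ratios scatter between probe sets of 1 gene on the same 2 arrays. A difference between 2 ratios scatters more widely than that. Neither says how far this difference would vary between repeat arrays or animals.

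Of the BH3-only genes, Bad had the lowest ratios of any member. BAD is held inactive by phosphorylation and 14-3-3 proteins, and once freed it binds BCL-XL and BCL2. Probe set 1416582_a_at read 485 in the control and 155 in the knockout, a log2 ratio of −1.65 or 3.14-fold lower. Probe set 1416583_at read 357 and 234, 1.52-fold lower. Both lay above the floor on both arrays and in the same direction, but the Smad4 −/− signal of the first was just above the floor of 145.

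The size of the Bad difference depended on the probe set. At −1.65, 0.365% of all measured probe sets were as low or lower, and at −0.61, 12.3% were. Among the 4252 genes with several measured probe sets, 71 (1.67%) had all of them at or below −0.61. That cut is the weaker ratio of Bad itself, and genes with more than its 2 measured probe sets meet it less easily. The share is a description and no test. The gene value came from 1416583_at, whose mean log2 signal was slightly the higher, and so stayed within 2-fold. The mean of both was −1.13, past 2-fold.

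**Figure D2:**
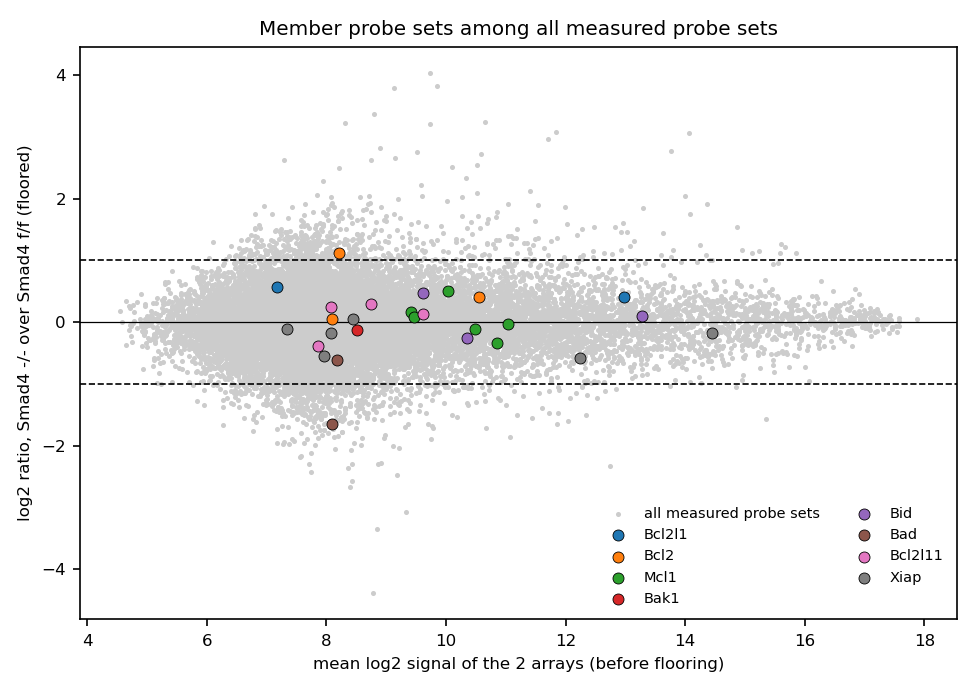
Log2 ratio of Smad4 −/− over Smad4 f/f (vertical axis, floored values) against the mean log2 signal of both arrays (horizontal axis) for all 18099 measured probe sets (grey) and the 27 measured member probe sets (coloured by gene); dashed lines mark 2-fold. A single Bcl2 probe set lies above the upper line at 1.12 and a single Bad probe set below the lower line at −1.65, both at low signal where the grey cloud is wide.

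Bid encodes a protein that caspases and granzyme B cut into an activator of BAK and BAX, and its signals differed little. Its strongest probe set, 1417045_at, read 9556 in the control and 10294 in the knockout, a log2 ratio of 0.11. Probe set 1448560_at read 662 and 922, a ratio of 0.48, and 1447873_x_at read 1425 and 1195, a ratio of −0.25. The 3 probe sets thus went both ways.

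Bcl2l11 encodes BIM, an activator that binds all survival proteins and is induced by FOXO factors. Its strongest probe set, 1456005_a_at, read 752 in the control and 824 in the knockout, a log2 ratio of 0.13. Probe sets 1435448_at (389 and 478) and 1456006_at (248 and 295) were also higher, whereas 1435449_at (266 and 203) was lower. The mean over these 4 was 0.07. The remaining one, 1426334_a_at, lay below the floor at 67.5 and 23.5.

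Xiap encodes an inhibitor of caspases, and 6 of its 7 probe sets were measured. Of these, 5 were lower in Smad4 −/− and 1 was higher, with log2 ratios from −0.58 to 0.05. The strongest, 1437533_at, read 23816 in the control and 21010 in the knockout, a ratio of −0.18. The next, 1456088_at, read 5905 and 3959, 1.49-fold lower. The only one above 0, 1426636_a_at, read 341 and 352. The remaining one, 1450232_at, lay below the floor on both arrays, at 17.8 and 126. Xiap was the only member besides Bad in which most of several measured probe sets were lower, and none of them reached 2-fold.

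Grouped by role, the 11 measured probe sets of the 3 survival genes had a median log2 ratio of 0.16, with 8 above 0 and 3 below. The 9 of the BH3-only genes had a median of 0.11, with 5 above 0 and 4 below. Probe sets of a gene share its transcript, so these counts rest on 3 genes each. The 7 member probe sets below the floor on both arrays went 3 up and 4 down, with signals from 9.33 to 126.

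**Figure D3:**
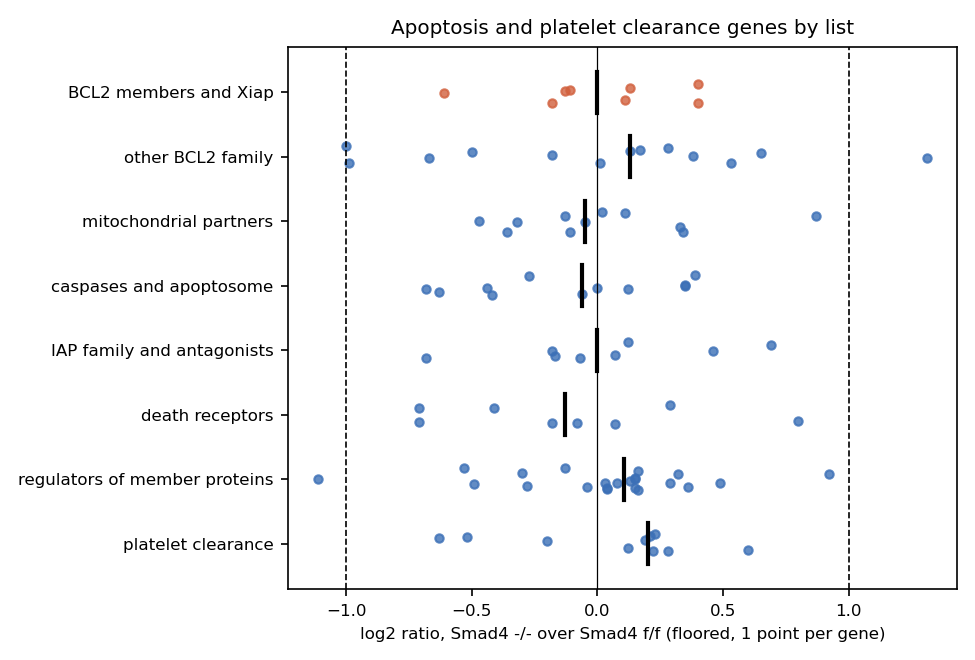
Floored log2 ratio of Smad4 −/− over Smad4 f/f for each measured gene (points, 1 per gene, with vertical scatter only for legibility) in the member list and 7 related lists; black bars are medians and dashed lines mark 2-fold. All 8 members lie inside 2-fold; Bag6, Bcl2l14 and Ywhag are the only genes at or beyond it.

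The rest of the pathway was read from 7 further lists, set beside the 7.0% of measured genes past 2-fold. Among other BCL2 family and BAG genes, 1 of 13 measured (25 listed) was at least 2-fold higher and 1 lower, and the median log2 ratio was 0.13. Bag6, which encodes a chaperone of misfolded and tail-anchored proteins, read 52.9 in the control, below the floor, and 361 in the knockout, at least 2.49-fold higher. Bcl2l14 read 290 and 138, the latter below the floor, which makes it at least 2.00-fold lower. Hrk, a BH3-only gene best known in neurons, read 555 and 279, a log2 ratio of −0.99 just short of 2-fold. Each of the 3 has 1 measured probe set.

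The mitochondrial partners of the family, which include the VDAC channels, cytochrome c and its companions, all stayed within 2-fold, 11 of 11 measured (12 listed), with a median of −0.05. Slc25a4, an ADP/ATP carrier of the inner membrane, had a log2 ratio of 0.87 (3412 in the control and 6252 in the knockout), and its 3 measured probe sets were all higher, from 0.36 to 0.87. Ppif, which encodes the pore regulator cyclophilin D, had a ratio of −0.47 (3155 and 2278), with both probe sets lower. Mtch2, which encodes the mitochondrial receptor of cleaved BID, had one of −0.36 (1739 and 1352), with all 3 lower.

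Of the caspases and apoptosome genes, 11 of 14 listed were measured, 0 passed 2-fold and the median was −0.06. Casp9, the initiator caspase of the apoptosome, read 233 in the control and 111 in the knockout, the latter below the floor, at least 1.60-fold lower. Dffa, which encodes the inhibitor of the apoptotic DNase, had a ratio of −0.63 (326 and 211), and Casp8, the initiator of the death receptor pathway, one of −0.44 (457 and 338).

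In the family of IAP genes related to Xiap and their antagonists, 8 of 11 were measured, 0 passed 2-fold and the median was 0.00. Birc6, which encodes a giant ubiquitin ligase, had a ratio of 0.69 (532 in the control and 855 in the knockout), but its 3 probe sets ranged from −0.58 to 0.69. Naip6, of the inflammasome sensor family, had one of −0.68 (377 and 235). Xaf1, whose protein antagonises XIAP, had one of 0.46 (362 and 499) by 1 probe set and −1.32 (652 and 261) by the other, so its direction is not settled.

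Among death receptors and their adaptors, 8 of 12 were measured, 0 passed 2-fold and the median was −0.13. Ripk3, a kinase of necroptosis, had a ratio of 0.80 (151 in the control and 263 in the knockout). The adaptor gene Fadd had one of −0.71 (561 and 342), as did Tnfrsf1a, the main TNF receptor (355 and 217). A second Fadd probe set read 163 and 30.3, the latter below the floor, at least 1.12-fold lower. Tnfsf10 had a gene value of −0.41. Its other measured probe set read 448 in the control and 109 in the knockout, the latter below the floor, at least 3.08-fold lower. The mean of both was −1.02, past 2-fold.

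Of the genes whose proteins act on the members, 22 of 27 were measured, 1 was at least 2-fold lower and 0 higher, with a median of 0.11. Ywhag, which encodes 14-3-3 gamma, of the protein family that holds phosphorylated BAD in the cytosol, read 1631 in the control and 757 in the knockout, 2.15-fold lower. Its other 2 measured probe sets, both of the _x_at class, had ratios of −0.70 and −0.53, so all 3 were lower. The mean of the 3 was −0.78, short of 2-fold.

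The gene values of the other 14-3-3 genes of the list lay between 0.04 and 0.15, but their probe sets varied more. Ywhae had a ratio of 0.08, while its other 3 measured probe sets were lower, down to −0.46, with a mean of −0.25 over the 4. Ywhaz had a ratio of 0.04 and probe sets from −0.06 to 0.60. Ywhab had a ratio of 0.15 and probe sets from −0.01 to 0.16, and the 1 probe set of Ywhah had one of 0.15. Pim1, a kinase that phosphorylates BAD, had one of 0.92 (462 and 874), but its second probe set was level at 321 and 320. Fbxw7, which marks MCL1 for degradation, had one of −0.53 (211 and 146).

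Platelets are also cleared by the liver once their surface glycans lose sialic acid. Of 14 clearance genes, 10 were measured, 0 passed 2-fold and the median was 0.20. Of the 10, 7 were above 0, where 48.3% of all measured genes were. Among the 7 was Asgr1 (22.9 in the control and 168 in the knockout), which reached the floor only in the knockout. The sialidase gene Neu1 had a ratio of −0.63 (235 in the control and 152 in the knockout), but its 2 probe sets ranged from −0.63 to 0.47. Ano6, the calcium-gated lipid scramblase that exposes phosphatidylserine, had one of 0.60 (1470 and 2235), with both probe sets higher. Asgr2, a subunit of the hepatic receptor for such platelets, read 208 and 103, the latter below the floor, at least 1.43-fold lower.

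**Figure D4:**
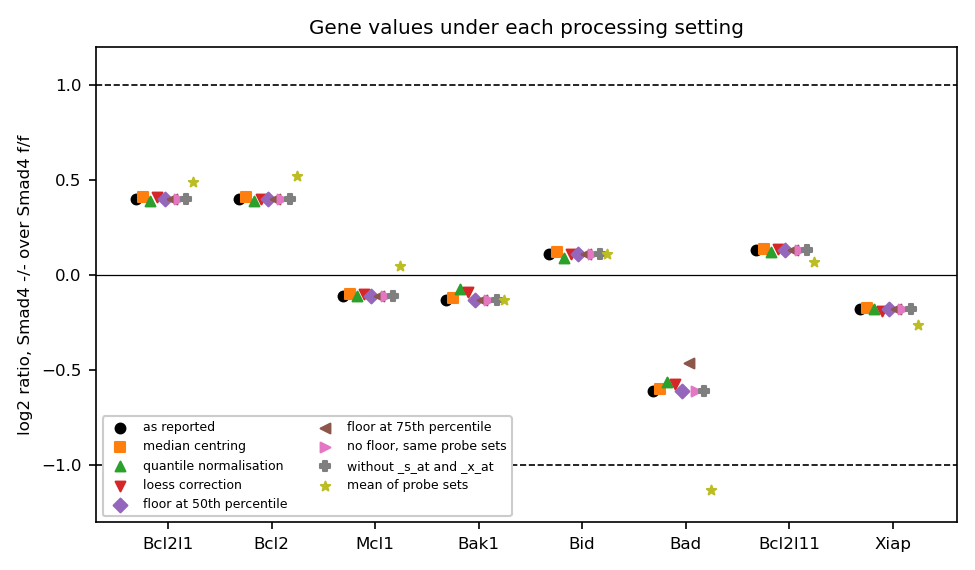
Log2 ratio of Smad4 −/− over Smad4 f/f for the gene value of each of the 8 members under the reported setting (black circles) and 8 other settings (coloured symbols, including other scalings, floors and the mean of probe sets); dashed lines mark 2-fold. The values of each gene keep their sign except for Mcl1, which goes from −0.11 to 0.05 with the mean of its probe sets, and Bad alone crosses 2-fold, at −1.13 with that mean.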

How the data were processed

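The authors deposited a log2 signal for every probe set on each array, made with MAS5 per the submitters' processing notes, whose version and settings are not given in the sources used here. MAS5 combines the probe intensities of a set into 1 signal. The scale was read from the values: antilogs had a 2% trimmed mean of 500.01 on both arrays. Labelling used an in vitro transcription kit that starts at the 3′ end, per the labels' protocols, so each probe set reads the 3′ part of a transcript.

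Of 45101 probe sets, 64 are controls, 34945 have 1 symbol, 932 several and 9160 none in the annotation used, which can be old; those with several or none were left out. Symbols were looked up by Entrez ID in a RefSeq table (GRCm38.p6), where 34741 matched and 0 changed. Promoter sequences are RefSeq's of that build. Values were used as scaled. A gene took the value of its brightest probe set (_x_at only where no other), kept if at least 1 array reached the floor. Where only 1 array reached the floor, the ratio is a bound, written as at least that fold. No test was run, as each genotype has 1 array. Of the probe sets, 40.0% and 38.5% reached the floor in Smad4 f/f and Smad4 −/−.

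All members were named, and in every other list the 3 measured genes with the largest ratios and any past 2-fold. From the marker lists, at most 3 with the largest ratio were to be named beside a member result. Those outside these rules (the lower erythroid markers, Cd3d and other markers beside Bcl2l1 and Bcl2, Pf4, Itga2b, the other 14-3-3 genes, and genes named as below the floor or not analysed) were named after their values were seen. Asgr1 and Tnfsf10 were likewise named after their values were seen. No gene was named for likeness of pattern, since 2 arrays give a single ratio per gene. The members and lists were chosen with earlier results of these data known. Alternatives were 3 other scalings, 3 other floors, 2 other thresholds, leaving out _s_at and _x_at probe sets, and the mean of probe sets. Steps were tested on simulated data. Python 3.11.15, pandas 2.3.3 and statsmodels 0.14.6 were used.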

Additional observations from a re-analysis of the deposited data

How the results depend on the processing

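Median centring, quantile normalisation and loess changed no count of members past 2-fold, and the median log2 ratio of the member genes lay between 0.00 and 0.06 over all settings. The number of member genes at least 2-fold lower went from 0 to 1 (Bad) with the mean of probe sets, where 298 of all measured genes were. At a threshold of 1.5-fold, 1 member gene was lower, beside 1480 of all 11089 measured genes. Of the member probe sets, 1 higher became 2 with a 50th percentile floor or none, and 0 with a 75th percentile floor or at 3-fold. The 1 lower became 2 at 1.5-fold and 0 with a 75th percentile floor. Over all measured genes, 379 higher and 397 lower became 671 and 762 with the 50th percentile floor. They became 175 and 140 with the 75th, and 57 and 46 at 3-fold. A floor caps the ratio of weak probe sets: Bad 1416582_a_at went from −1.65 to −0.90 at the 75th percentile, and Bcl2l1 1426191_a_at from 0.57 to 1.05 at the 50th and 1.15 with none. Of the 7 lists, only that of other BCL2 family and BAG genes and that of regulators had genes past 2-fold in the reported setting; Bag6 and Bcl2l14 fell inside 2-fold with a 75th percentile floor, and Ywhag with the mean of probe sets. At 2-fold, 1 caspase or apoptosome gene was lower and 2 genes of the first list were higher with a 50th percentile floor or none, and 1 death receptor gene was lower with the mean of probe sets. With no floor, 2 death receptor genes were higher, 1 IAP gene lower, and 1 clearance gene higher and 1 lower, while the counts over all genes went from 379 higher and 397 lower to 1130 and 1301. No value past 2-fold in the reported setting changed sign. No paired analysis was possible because each genotype has 1 array. Signal limits 7 of the 34 member probe sets, which never reached the floor, and 1 more that reached it on 1 array only.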
